A study of Mus musculus with 71 samples.

Results

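The libraries described here are those of the rest of the embryo, after removal of heart and tail bud, from embryos that lack miR-19a and miR-19b-1 (Delta_19, 3 libraries) and from embryos with an intact miR-17-92 locus (Wild-type, 3 libraries). They were chosen by genotype and tissue alone and make up 6 of the 71 libraries of the series. In all of them the strain was C57BL/6 and the stage E9.5, with 20 to 22 somites. The series profiled 8 genotypes in 3 tissues, and 23 of its libraries come from the rest of the embryo. Other genotypes enter where they bear on miR-19. Full-KO lacks the whole cluster, Delta_17_18_92 lacks the members of the other 3 families and so keeps both miR-19 genes, Delta_17 lacks miR-17 and miR-20a, Delta_18 lacks miR-18a, and Delta_92 lacks miR-92a-1. Delta_17_18, which lacks miR-17, miR-20a and miR-18a together, also enters the fit. Each of these had 3 rest-of-embryo libraries except Delta_17_18_92, with 2. The series text calls the samples biological replicates. The sources used here give neither zygosity, litter or sex, nor whether a library came from 1 embryo. All genotypes keep Mir19b-2, the X-linked gene for a miR-19b of the same mature sequence, which is not among the deletions named in the labels.

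MicroRNAs guide Argonaute proteins to mRNAs that pair with the seed at the microRNA's 5′ end, and the paired mRNAs are translated less and degraded faster. miR-17-92 is a single primary transcript from which several microRNAs of 4 seed families are cut. In mice the miR-19 family is known as a main driver of the cluster's activity in B-cell lymphoma, and mice without the whole cluster die around birth. In people, loss of a copy of the host gene causes Feingold syndrome, a disorder of skeletal growth.

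The mature microRNAs of the locus are shown because the comparisons turn on which seed is missing. Sequences and GRCm38.p6 coordinates (plus strand) are RefSeq's, with the seed, bases 2 to 8, in capitals. The 2 mature products that Delta_19 loses share a seed and differ by the substitution U11C, counted from the 5′ end of miR-19a.
mmu-miR-19a-3p, chr14:115044048-115044070: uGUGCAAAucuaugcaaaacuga
mmu-miR-19b-3p, chr14:115044358-115044380: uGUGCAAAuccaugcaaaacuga
mmu-miR-17-5p, chr14:115043684-115043706: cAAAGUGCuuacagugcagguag
mmu-miR-20a-5p, chr14:115044183-115044205: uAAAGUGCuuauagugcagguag
mmu-miR-18a-5p, chr14:115043867-115043889: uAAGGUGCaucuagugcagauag
mmu-miR-92a-3p, chr14:115044476-115044496: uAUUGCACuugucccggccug
The miR-17 and miR-20a seeds are the same. The seeds of miR-17, miR-18 and miR-92 are different letters from that of miR-19, so each deletion removes a different match.

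In an mRNA, the letters that pair with the miR-19 seed are TTTGCAC. A match followed by A, TTTGCACA, is called an 8mer here, and one followed by another base a 7mer-m8. Both were looked up on the transcript strand of the longest annotated 3′UTR of each gene (GENCODE, GRCm38), and every 8mer holds the letters of the 7mer-m8. An 8mer was present in 5.84% of the 14375 tested genes that have an annotated 3′UTR. The 8mers of the 8mer genes whose rise in Delta_19 had the smallest p-values are printed below with their surroundings, the match in capitals. Each line gives the position of the printed stretch and, before the colon, the base of the 3′UTR at which the match starts out of the 3′UTR's length.
Suz12, chr11:80033791-80033812, plus strand, 1612 of 1933: ggctagcattgTTTGCACAaaa
Reep3, chr10:67013184-67013205, minus strand, 536 of 4541: tcctggctagtTTTGCACActt
Rnf11, chr4:109453758-109453779, minus strand, 483 of 3153: ttttaagcttgTTTGCACAgtt
Rnf11, chr4:109453125-109453146, minus strand, 1116 of 3153: atgtgttatgtTTTGCACAcca
Acadm, chr3:153922480-153922501, minus strand, 441 of 574: atttgctttgtTTTGCACAaaa
Nrbp1, chr5:31251309-31251330, plus strand, 191 of 437: tgtttacttgtTTTGCACAgac
Lonrf1, chr8:36217312-36217333, minus strand, 121 of 1379: gcccgctgcctTTTGCACAccc
Lonrf1, chr8:36216731-36216752, minus strand, 702 of 1379: ccatgcttctcTTTGCACAagt
Asna1, chr8:85018058-85018079, minus strand, 56 of 193: atggggcagagTTTGCACAaag
Ccm2, chr11:6596662-6596683, plus strand, 312 of 383: gacagctgataTTTGCACAtga
Rnf11 and Lonrf1 hold a pair of 8mers each. The others in this list hold 1 8mer, and in Nrbp1, Asna1 and Ccm2 it lies in a short 3′UTR. Suz12 also holds a 7mer-m8, not printed, that starts at base 750 of 1933.

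The 6 libraries held between 18734142 and 21981291 counts assigned to genes. Replicates of a genotype differed by more than counting noise, and the fit over the 23 rest-of-embryo libraries gave a biological coefficient of variation of 6.47%. Levels are given as CPM (counts scaled by library size and TMM factors), which follow transcript length and so compare 1 gene between libraries, not genes with each other. Heart had been largely removed: on the CPM scale of a fit over the 18 Delta_19 and Wild-type libraries of all tissues, 13 cardiomyocyte genes summed to 210 to 245 CPM in Delta_19 and 203 to 252 CPM in Wild-type, against 30362 to 34884 CPM in Delta_19 hearts and 33031 to 35921 CPM in Wild-type hearts. Among tail bud genes, 12 summed to 81.2 to 89.7 CPM in Delta_19 and 74.2 to 87.6 CPM in Wild-type, against 1337 to 1365 CPM in Delta_19 tail buds and 1183 to 1343 CPM in Wild-type tail buds. By Xist against Y-linked genes, 2 of the Delta_19 libraries and 1 of the Wild-type libraries were of the Xist class. In whole-tissue RNA, fewer cells of a type and less RNA per cell cannot be told apart.

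Delta_19 and Wild-type embryos differed by small amounts in many genes. Of 17512 genes tested with edgeR's quasi-likelihood test, 329 (1.88%) passed an adjusted p of 0.05, 173 (0.988%) higher and 156 (0.891%) lower in Delta_19. The median log2 fold change (Delta_19 minus Wild-type) was 0.27 in size among the genes that rose, and 0.21 among those that fell. A change of more than 0.5 was seen in 32 of the genes that rose and 10 of those that fell. All 173 that rose, and 154 of the 156 that fell, had groups that did not overlap. Over all genes tested, every Delta_19 library was above every Wild-type library in 8.04%, and every one below in 9.33%. The counts depended on single libraries: without Wild-type replicate 1, 84 genes were higher and 58 lower, and without Delta_19 replicate 1, 98 were higher and 58 lower.

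The genes that rose were rich in miR-19 8mers, and the genes that fell had almost none. Of the 160 risers with an annotated 3′UTR, 72 (45%) held an 8mer, against 1 of 153 fallers (0.654%). Read the other way, 72 of the 839 genes with an 8mer rose (8.58%) and 1 fell (0.119%), against 70 higher (0.56%) and 140 lower (1.12%) of the 12500 genes with neither match. Of 1036 genes with a 7mer-m8 and no 8mer, 18 were higher (1.74%), a share between those of the other classes, and 12 were lower (1.16%), a share close to that of genes with neither match. The median log2 fold change was 0.040 over genes with an 8mer, 0.0057 over those with a 7mer-m8, and -0.0072 over those with neither. With the 2 miR-19 matches absent, 890 genes still held the shorter 7mer-A1 letters TTGCACA, and 28 of these rose (3.15%) and 7 fell (0.787%). Among the 11610 genes with none of the 3 kinds of match, 42 rose (0.362%) and 133 fell (1.15%).

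**Figure D1:**
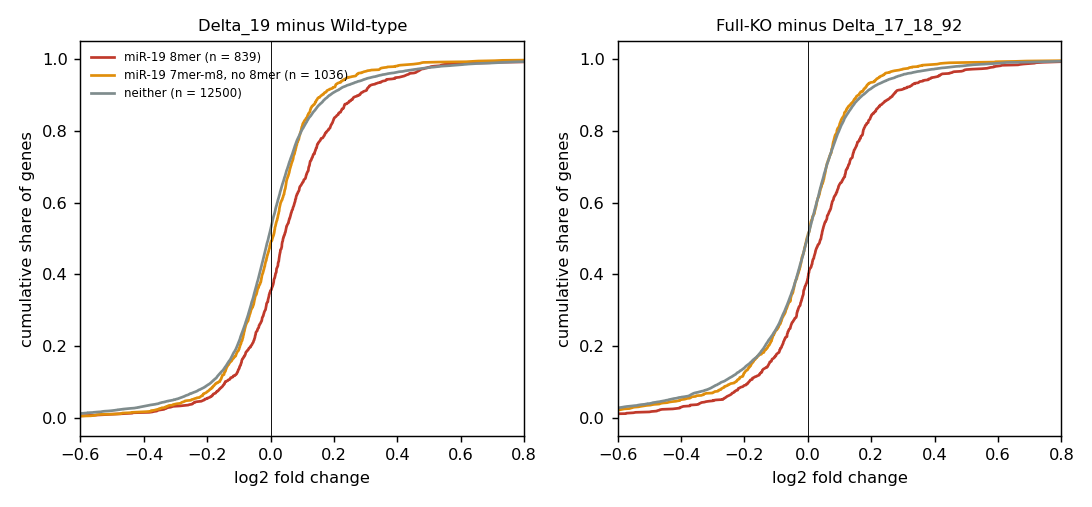
Cumulative share of genes (y axis) by log2 fold change (x axis) for genes with a miR-19 8mer, with a 7mer-m8 and no 8mer, and with neither, in Delta_19 minus Wild-type (left) and Full-KO minus Delta_17_18_92 (right). The 8mer curve lies to the right of the other curves over most of the range in both panels, with medians of 0.040 (left) and 0.042 (right).

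Of 776 genes with 1 8mer, 62 rose (7.99%), and of the 56 genes with 2, 9 did (16.1%). Only 7 genes held 3 or more, and 1 of them rose. By length of the 3′UTR the shares ran as follows, with no test of their difference. In the shortest tertile, 13 of 59 genes with an 8mer rose (22.0%), against 0.472% of genes with neither match. In the middle tertile 21 of 231 did (9.09%), against 0.565%, and in the longest 38 of 549 (6.92%), against 0.669%. Among the 20 genes of smallest p, 19 were higher in Delta_19, 16 held an 8mer and 1 more held a 7mer-m8.

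Genes with matches of the other families and no miR-19 match had medians below that of all genes with no miR-19 match. The median log2 fold change was -0.030 over 462 genes with a miR-17 8mer, -0.041 over 181 with a miR-18 8mer and -0.045 over 287 with a miR-92 8mer, against -0.0072 over all genes with no miR-19 match. The 3′UTRs of these sets were longer, with medians of 2456.5, 2243 and 2127 bases, against 1037.5 bases. Over all genes with no miR-19 match the median log2 fold change was 0.0050, -0.012 and -0.017 from the shortest to the longest tertile. The part of 3′UTR length in the difference was not tested. Of the miR-17 genes 4 rose (0.866%) and 9 fell (1.95%), and of the miR-18 genes 0 rose and 7 fell (3.87%). Of the miR-92 genes 2 rose (0.697%) and 14 fell (4.88%). Among all genes with no miR-19 match 0.56% were higher and 1.12% lower, and among all genes tested 0.988% and 0.891%.

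The largest rise among genes with an 8mer was 1.94-fold. Rnf11, a RING-finger protein that works with ubiquitin ligases, had 77.2, 77.1 and 80.7 CPM in Delta_19 and 36.7, 42.7 and 41.7 CPM in Wild-type. Suz12, a core subunit of the Polycomb complex that methylates histone H3, had 268, 261 and 252 CPM in Delta_19 and 157, 163 and 163 CPM in Wild-type. Reep3, which shapes and positions the endoplasmic reticulum, had 75.6, 78.6 and 76.2 CPM in Delta_19 and 40.4, 45.6 and 44.3 CPM in Wild-type. In each of the 3 genes the lowest Delta_19 library was far above the highest Wild-type library. The log2 fold change of Rnf11 was 0.95 ± 0.062 SE, adjusted p = 4.06e-12 by edgeR. For Suz12 it was 0.69 ± 0.032 SE, adjusted p = 9.04e-16, and for Reep3 0.82 ± 0.049 SE, adjusted p = 5.15e-13.

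Acadm, the medium-chain acyl-CoA dehydrogenase of mitochondrial fatty acid oxidation, had 47.2, 49.2 and 56.4 CPM in Delta_19 and 29.9, 28.0 and 27.8 CPM in Wild-type. Lonrf1, a protein with LON and RING-finger domains, had 40.9, 36.0 and 35.3 CPM in Delta_19 and 20.4, 19.3 and 21.8 CPM in Wild-type. Rhebl1, a small GTPase related to the mTOR activator Rheb, had 25.0, 22.9 and 23.5 CPM in Delta_19 and 16.6, 13.4 and 14.2 CPM in Wild-type. None of these genes overlapped between the groups, with edgeR log2 fold changes of 0.83 ± 0.067 SE, adjusted p = 5.28e-10 for Acadm, 0.87 ± 0.085 SE, adjusted p = 5.26e-08 for Lonrf1 and 0.70 ± 0.083 SE, adjusted p = 2.53e-06 for Rhebl1. Nrbp1, a pseudokinase, had 151, 166 and 169 CPM in Delta_19 and 114, 106 and 106 CPM in Wild-type. Asna1, the ATPase that delivers tail-anchored proteins to the endoplasmic reticulum, had 123, 131 and 136 CPM in Delta_19 and 94.1, 88.7 and 91.5 CPM in Wild-type. Ccm2, a scaffold protein of the cerebral cavernous malformation complex in endothelium, had 75.2, 81.7 and 75.4 CPM in Delta_19 and 53.6, 56.3 and 52.4 CPM in Wild-type. These 3 rose by less than the first 6, with log2 fold changes of 0.58, 0.51 and 0.52, and kept the call in every fit that left out a library. The same held for Rnf11, Suz12, Reep3, Acadm, Lonrf1 and Rhebl1.

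**Figure D2:**
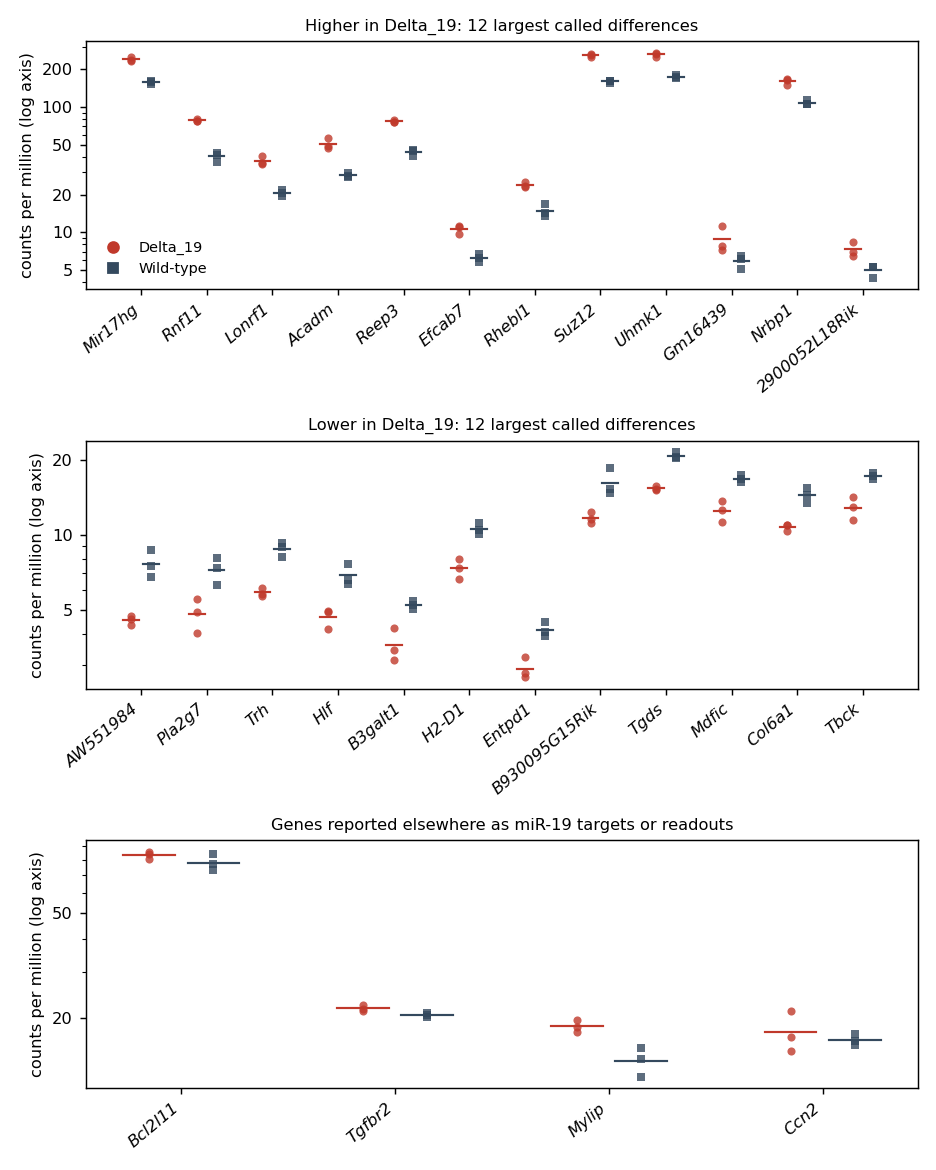
CPM (y axis, log scale) in each Delta_19 library (circles) and each Wild-type library (squares), with horizontal bars at the means, for the 12 largest called rises and 12 largest called falls among non-overlapping genes whose mean log2 CPM reaches 2, and 4 genes known from work on miR-19. The groups do not overlap in any of the 24 genes of the upper panels, while Bcl2l11, Tgfbr2 and Ccn2 differ little.

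Genes known from work on miR-19 differed less than the largest rises. Bcl2l11, the pro-apoptotic protein Bim, had 86.0, 84.5 and 80.7 CPM in Delta_19 and 73.2, 83.9 and 77.5 CPM in Wild-type, which overlapped, with a log2 fold change of 0.10 ± 0.050 SE, adjusted p = 0.391 by edgeR. Tgfbr2, a TGF-β receptor, had 21.5, 22.4 and 21.2 CPM in Delta_19 and 20.5, 20.2 and 20.8 CPM in Wild-type (0.083 ± 0.074 SE, adjusted p = 0.679). Ccn2, a matrix protein induced by TGF-β, had 14.9, 21.3 and 17.0 CPM in Delta_19 and 16.4, 17.4 and 15.7 CPM in Wild-type (0.10 ± 0.090 SE, adjusted p = 0.679). Bcl2l11, Tgfbr2 and Ccn2 hold a 7mer-m8 and no 8mer. Mylip, the ubiquitin ligase that degrades the LDL receptor, holds an 8mer and rose, with 17.6, 18.4 and 19.6 CPM in Delta_19 and 13.9, 15.3 and 11.9 CPM in Wild-type (log2 fold change 0.44 ± 0.085 SE, adjusted p = 0.00336).

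Of 20 genes listed as reported miR-19 targets, 18 were tested, and 2 rose and 0 fell, beside 0.988% and 0.891% of all genes. The second that rose was Hbp1, a transcriptional repressor of cell cycle genes, with 106, 91.4 and 109 CPM in Delta_19 and 79.5, 81.8 and 86.6 CPM in Wild-type (edgeR adjusted p = 0.0176). Its longest annotated 3′UTR holds neither match. The call on Hbp1 was lost without Delta_19 replicate 1 or 3 or Wild-type replicate 1 or 2, with adjusted p between 0.0685 and 0.105. The median log2 fold change of the 18 was 0.099, with 16 above 0, against -0.00047 over all genes tested. Against the same Wild-type libraries the median of the 18 was 0.10 in Delta_17, which keeps miR-19, 0.014 in Delta_18 and 0.012 in Delta_92. Atxn1, a transcriptional co-repressor, had the highest value of the list at 0.50 (adjusted p = 0.129), without passing the threshold.

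Among genes whose mean log2 CPM reached 2 and whose groups did not overlap, the other large rises were in genes without an 8mer. Below that level, 8 genes rose by more than 1 on the log2 scale, and none of them holds an 8mer. Uhmk1, a kinase with an RNA-recognition motif, had 266, 273 and 252 CPM in Delta_19 and 171, 181 and 173 CPM in Wild-type, which did not overlap (log2 fold change 0.59 ± 0.039 SE, adjusted p = 4.46e-12 by edgeR). Its 3′UTR holds the 7mer-A1 letters only. Efcab7, an EF-hand protein of the ciliary Hedgehog machinery, had 11.2, 9.69 and 10.9 CPM in Delta_19 and 6.22, 5.79 and 6.72 CPM in Wild-type (0.76 ± 0.16 SE, adjusted p = 0.00828), and without Wild-type replicate 2 its adjusted p was 0.051. The transcripts Gm16439 and 2900052L18Rik, with no annotated 3′UTR, rose by 0.58 and 0.55 at under 12 CPM. Gm16439 lost the call when any of 3 libraries was left out, and 2900052L18Rik when any of 5 was. Mir17hg, the host transcript from which the cluster is cut, had 239.5, 232 and 252 CPM in Delta_19 and 154, 161 and 159 CPM in Wild-type (log2 fold change 0.61 ± 0.054 SE, adjusted p = 1.73e-08). All 6 hairpin genes of the locus in the count table had 0 counts in all 71 libraries, so the deletion itself could not be checked in these data, and counts over the rest of Mir17hg do not test it.

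The falls were smaller. The largest were those of Chst5, a sulfotransferase, and Lzts1, a leucine-zipper protein, by 1.23 and 1.10 on the log2 scale, both with a mean log2 CPM under 1 and named here after their values were seen (adjusted p = 0.0462 for both by edgeR). Chst5 lost the call in 4 and Lzts1 in 5 of the 6 fits that left out a library. Of genes whose mean log2 CPM reached 2, AW551984 had 4.33, 4.70 and 4.58 CPM in Delta_19 and 7.48, 6.75 and 8.70 CPM in Wild-type, with a log2 fold change of -0.75 ± 0.13 SE, adjusted p = 7.14e-04 by edgeR. Tgds, a dehydratase-like enzyme, had 15.2, 15.2 and 15.7 CPM in Delta_19 and 20.5, 21.5 and 20.4 CPM in Wild-type (-0.44 ± 0.070 SE, adjusted p = 3.32e-04). H2-D1, a classical MHC class I molecule, had 7.97, 7.37 and 6.64 CPM in Delta_19 and 10.5, 11.1 and 10.1 CPM in Wild-type (-0.53 ± 0.11 SE, adjusted p = 0.00488). The groups did not overlap for any of the 3, and each kept its call in every fit without a library. H2-D1 has close relatives in the MHC, so its counts are less certain. Mdfic, an inhibitor of MyoD-family factors, fell by 0.43 and Tbck, a protein with a TBC domain and a kinase-like domain, by 0.42. Both also kept the call in every such fit.

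Several of the other large falls lost the call when a library was left out, while the fold stayed below 0. Pla2g7, the secreted platelet-activating factor acetylhydrolase, had 4.04, 4.90 and 5.53 CPM in Delta_19 and 7.38, 6.29 and 8.05 CPM in Wild-type (log2 fold change -0.59 ± 0.14 SE, adjusted p = 0.0218 by edgeR). Its adjusted p ranged from 0.0566 to 0.187 over the 4 of 6 fits without a library that lost the call. Trh, thyrotropin-releasing hormone, fell by 0.58 and Hlf, a PAR-family transcription factor, by 0.56, and each lost the call in 3 such fits, with log2 fold changes between -0.63 and -0.54 for Trh and between -0.61 and -0.47 for Hlf over the 6 fits. B3galt1, a galactosyltransferase, and Entpd1, the ectonucleotidase CD39, fell by 0.54 and 0.52, and each lost it in 5, with log2 fold changes between -0.66 and -0.45 for B3galt1 and between -0.60 and -0.46 for Entpd1. Although they fell, Hlf and B3galt1 each hold a miR-19 7mer-m8. B930095G15Rik fell by 0.47 and lost the call without Wild-type replicate 1 (adjusted p = 0.0939). Col6a1, a chain of collagen VI, fell by 0.42 and lost it in 4.

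Among the lists of pathway genes no list had more than 2 members past the test, beside 1.88% of all genes. In TGF-β and BMP signalling 1 of 30 rose, namely Skil, the SMAD repressor SnoN, which holds an 8mer, with 99.4, 94.7 and 101 CPM in Delta_19 and 75.6, 82.1 and 79.8 CPM in Wild-type (0.31 ± 0.057 SE, adjusted p = 0.00204 by edgeR). In the matrix genes downstream of TGF-β 1 of 12 fell, namely Tgfbi, a secreted matrix protein, with 29.1, 31.2 and 33.4 CPM in Delta_19 and 39.0, 37.3 and 38.2 CPM in Wild-type. Its adjusted p was 0.0193, and 4 of the fits without a library lost the call. In Wnt feedback 1 of 14 fell, namely Nkd2, a Wnt inhibitor, with 20.8, 21.9 and 20.4 CPM in Delta_19 and 26.7, 26.4 and 27.4 CPM in Wild-type (-0.35 ± 0.073 SE, adjusted p = 0.00688). In retinoic acid signalling 1 of 16 rose, namely Rxrb, a retinoid X receptor, with 81.4, 80.8 and 80.5 CPM in Delta_19 and 70.4, 69.5 and 65.0 CPM in Wild-type (0.24 ± 0.047 SE, adjusted p = 0.00271). In Full-KO minus Delta_17_18_92, 0 of the TGF-β and BMP genes rose, and 0 of the matrix or Wnt feedback genes fell. Skil, Tgfbi and Nkd2 were thus not called again there, while 1 of the retinoic acid genes rose.

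In the cell cycle and E2F list 2 of 25 fell. Ccnd3, cyclin D3, fell by 0.18 and Ccne2, cyclin E2, by 0.20, with adjusted p of 0.0314 and 0.0414 by edgeR. Ccng1, cyclin G1, was the only 1 of 14 p53 targets to pass, falling by 0.28 (adjusted p = 0.0479). Among brakes of MAPK signalling, 1 of 14 rose, Spred2, an inhibitor of Ras-ERK signalling, by 0.18 (adjusted p = 0.0414). The calls on Ccnd3, Ccne2, Ccng1 and Spred2 were each lost in 4 or 5 of the 6 fits without a library.

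No member passed in the lists of PI3K, AKT, FOXO and mTOR signalling (30 tested, median log2 fold change -0.0028), the BCL2 family (15, median 0.047), hypoxia and glycolysis (15, median 0.040), immediate early and stress genes (16, median -0.11) or brakes of NF-κB and JAK-STAT signalling (14, median 0.029). The nearest to the threshold in the first list was Pik3r1, a regulatory subunit of PI3K, at -0.18 ± 0.050 SE, adjusted p = 0.0613 by edgeR. In the BCL2 family it was Bmf, a pro-apoptotic BH3-only protein with an 8mer, at 0.23 ± 0.070 SE, adjusted p = 0.0958. Socs3, a brake of JAK-STAT signalling with an 8mer, stood at 0.25 ± 0.093 SE, adjusted p = 0.175. Bnip3, a hypoxia-induced mitophagy receptor, had 35.9, 19.7 and 20.8 CPM in Delta_19 and 19.4, 17.2 and 18.5 CPM in Wild-type, without passing (adjusted p = 0.163 by edgeR). Btg2, an early-response inhibitor of proliferation, was at -0.27 and Jun, a subunit of AP-1, at -0.22 (adjusted p = 0.171 and 0.167).

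The lists of cholesterol and Hox genes had raised medians with almost no member past the test. Of 21 LDL receptor and cholesterol genes all had a log2 fold change above 0, with a median of 0.28, and Mylip alone passed. Against the same Wild-type libraries the list's median was 0.28 in Delta_17, 0.30 in Delta_18 and 0.19 in Delta_92. A single Delta_19 library stood apart: the list's median distance from the Wild-type mean was 0.67 in Delta_19 replicate 1, 0.061 in replicate 2 and -0.062 in replicate 3, against -0.089, -0.11 and 0.22 in the Wild-type libraries. Of 28 Hox genes 24 were above 0, with a median of 0.20, and 0 passed. Their median distance was 0.34, 0.12 and 0.11 in Delta_19, against -0.049, -0.0021 and 0.041 in Wild-type, so the groups did not overlap. Hoxa5, a patterning gene of the cervical and thoracic trunk, was nearest to the threshold at 0.35 ± 0.11 SE, adjusted p = 0.0872 by edgeR, and Hoxc4 followed at 0.33 ± 0.10 SE, adjusted p = 0.109.

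In 12 lists of cell type markers 1 of the 129 entries tested was called, beside 1.88% of all genes. Of neural progenitor markers 8 of 11 were above 0 (median 0.10), of somite markers 8 of 12 (0.078) and of limb bud markers 7 of 10 (0.10). Of tail bud markers 8 of 10 were above 0 (median 0.12) and of neural crest markers 7 of 11 (0.036). Cardiomyocyte markers had 10 of 13 above 0 (0.059) and trophoblast markers 2 of 3 (0.17). Of neuron markers 4 of 12 were above 0 (median -0.015), of endothelium markers 5 of 12 (-0.026) and of foregut and liver endoderm markers 5 of 12 (-0.042). Over all genes tested 49.8% were above 0. The neural progenitor median by library was 0.25, 0.16 and -0.18 from the Wild-type mean in Delta_19. In Wild-type it was -0.098, 0.12 and -0.021, so the groups overlapped. Summed erythroid genes ranged from 3210 to 5418 CPM in Delta_19 and from 2773 to 4135 CPM in Wild-type, which overlapped. All 12 erythroid genes had a log2 fold change above 0, with a median of 0.38, the highest of any list, and 0 passed. Their median distance from the Wild-type mean was 0.61, 0.55 and -0.16 in Delta_19, against -0.13, 0.34 and -0.19 in Wild-type. The median log2 fold change of these 12 was -0.29 in Delta_17, 0.40 in Delta_18 and 0.34 in Delta_92, against the same Wild-type libraries. Yolk sac visceral endoderm genes summed to 54.8 to 745 CPM in Delta_19 and 61.8 to 567 CPM in Wild-type, a wide spread within each genotype, and 0 of 11 passed. The called gene was Myl2, the ventricular myosin light chain, with 1.36, 1.06 and 3.21 CPM in Delta_19 and 0.369, 0.137 and 0.0920 CPM in Wild-type (3.24 ± 0.77 SE, adjusted p = 0.0401 by edgeR). On the scale of the 23 libraries, the whole cardiomyocyte list summed to 227 to 262 CPM in Delta_19 and 219 to 270 CPM in Wild-type, with 3 of 14 genes under 1 CPM in every Delta_19 library and 4 of 14 in every Wild-type library. Tnnc1 was at or near 0 throughout. Myl2 lost its call in 5 of the 6 fits without a library, and the part of residual heart tissue in its values was not tested.

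Of the 15 other genes tested within 5 Mb of Mir17hg (GRCm38, chr14:115042879-115046727), 2 rose and 3 fell, beside 1.88% of all genes in either direction. They are named here after their values were seen. Dzip1, a ciliary protein, had 57.8, 54.7 and 57.1 CPM in Delta_19 and 43.3, 46.4 and 47.4 CPM in Wild-type. Slitrk6, a neuronal membrane protein, had 13.8, 15.2 and 14.0 CPM in Delta_19 and 8.75, 9.17 and 11.4 CPM in Wild-type. Gpr180, a receptor-like membrane protein, had 18.6, 22.1 and 21.5 CPM in Delta_19 and 27.2, 28.3 and 27.5 CPM in Wild-type. Tpm3-rs7, a relative of Tpm3 whose reads may be shared with it, fell by 0.18, and Tgds is described above. Without a library, Dzip1 lost the call in 1 fit, Slitrk6 in 3 and Tpm3-rs7 in 5, while Gpr180 and Tgds kept it in all 6. Against the same Wild-type libraries, the log2 fold changes in Delta_17, Delta_18 and Delta_92 were 0.44, 0.27 and 0.061 for Dzip1, 0.24, 0.40 and -0.019 for Slitrk6, and -0.52, -0.085 and 0.17 for Gpr180. For Tgds they were -0.14, 0.094 and 0.12, and for Tpm3-rs7 -0.12, -0.10 and -0.079. In Full-KO minus Delta_17_18_92 none of the 5 passed, with values between -0.20 and -0.058. The deletion and any neighbouring sequence carried along with the allele cannot be told apart in these libraries.

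To ask which differences were particular to the miR-19 deletion, Delta_19 was set against the mean of Delta_17, Delta_18 and Delta_92, which uses no Wild-type library but shares the Delta_19 libraries. In that contrast 412 genes were higher (2.35%) and 602 lower (3.44%) by edgeR. Rnf11 differed by 0.99 ± 0.048 SE, adjusted p = 1.35e-15, Suz12 by 0.75 ± 0.025 SE, adjusted p = 7.33e-20 and Acadm by 0.87 ± 0.052 SE, adjusted p = 3.07e-13. Against the shared Wild-type libraries, Rnf11 stood at -0.078, 0.0013 and -0.024 in Delta_17, Delta_18 and Delta_92, and Suz12 at -0.059, -0.054 and -0.064. Reep3 and Nrbp1 were also raised in Delta_17, where 1.43% of genes were called higher, at 0.28 (adjusted p = 6.81e-04) and 0.34 (adjusted p = 2.75e-06), and still differed from the other single deletions by 0.75 and 0.50 (adjusted p = 3.71e-15 and 3.36e-12 by edgeR).

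Efcab7 and Mir17hg, which also stood above Wild-type in other single deletions, were not shown to be particular to the miR-19 deletion. Efcab7 was 0.48, 1.05 and 0.52 in Delta_17, Delta_18 and Delta_92 against the same Wild-type libraries, and Delta_19 differed from their mean by 0.077 ± 0.12 SE, adjusted p = 0.803. Mir17hg stood at 0.94 in Delta_17, 0.039 in Delta_18 and 0.40 in Delta_92, and Delta_19 stood 0.15 ± 0.043 SE, adjusted p = 0.0305 above their mean. Among the falls, Sae1, a subunit of the SUMO-activating enzyme, had 281, 278 and 268 CPM in Delta_19 and 321, 316 and 313 CPM in Wild-type and differed from the other single deletions by -0.31 ± 0.029 SE, adjusted p = 1.08e-08. Mfn2, which fuses mitochondria, had 74.2, 71.9 and 75.1 CPM in Delta_19 and 87.1, 88.4 and 84.0 CPM in Wild-type, and differed by -0.32 ± 0.033 SE, adjusted p = 4.21e-08. Itga5, the integrin α5 chain of the fibronectin receptor, Bgn, the matrix proteoglycan biglycan, and Rpl15, a ribosomal protein, were also lower in both contrasts. Their differences from the mean of the single deletions were -0.37, -0.51 and -0.31. Part of these differences lay in the other alleles: against Wild-type, Mfn2 stood at 0.40 in Delta_17, and in Delta_92 Itga5 stood at 0.48, Bgn at 0.31 and Rpl15 at 0.44. Ribosomal protein genes have many near-identical copies, so the counts of Rpl15 are less certain, and its call against Wild-type was lost in 2 fits without a library, as was that of Itga5.

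The shift of all genes with a miR-19 8mer, called or not, separated the Delta_19 from the Wild-type libraries. For each library it was taken as the median log2 distance from the Wild-type mean over these genes, minus that over genes that match none of the 4 seeds. Each Wild-type library is part of that mean, so the Wild-type shifts lie around 0 by construction and their distances are made smaller. The shift was 0.047 ± 0.0091 (SD, n = 3) in Delta_19, with libraries between 0.039 and 0.057, against -0.00035 ± 0.012 (SD, n = 3) in Wild-type, with libraries between -0.014 and 0.0072. Full-KO averaged 0.078, between 0.074 and 0.081. Delta_17_18_92, which keeps miR-19, averaged 0.037, and its 2 libraries, at 0.031 and 0.042, reached into the range of Delta_19. The means of Delta_17, Delta_18, Delta_92 and the double allele Delta_17_18 lay between -0.015 and 0.012. In the Delta_19 libraries the same measure was -0.018 for miR-17 8mers, -0.017 for miR-18 8mers and -0.037 for miR-92 8mers.

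**Figure D3:**
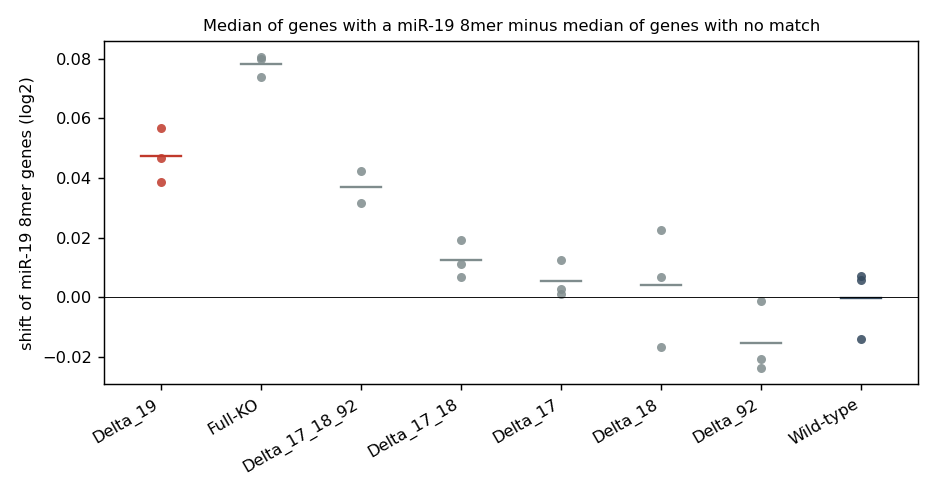
Shift of genes with a miR-19 8mer (y axis, log2 units) in each of the 23 rest-of-embryo libraries by genotype, with bars at the group means. The Delta_19 libraries, from 0.039 to 0.057, lie above all Wild-type libraries, whose highest is 0.0072, and the Full-KO libraries are higher still. The 2 Delta_17_18_92 libraries, at 0.031 and 0.042, overlap with Delta_19.

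Full-KO and Delta_17_18_92 offer a second look at the loss of miR-19, on embryos that lack the other families in both groups and with no library in common with the first comparison. In Full-KO minus Delta_17_18_92, 171 genes were higher (0.976%) and 141 lower (0.805%) by edgeR. With a single library left out these were 41 and 11 without Delta_17_18_92 replicate 2, 67 and 92 without replicate 1, 84 and 54 without Full-KO replicate 2, and 91 higher without Full-KO replicate 1. Of 13 cardiomyocyte genes, 6 were lower in this comparison. The whole list of 14 summed to 159.7 to 281 CPM in Full-KO, against 348 to 495 CPM in Delta_17_18_92, so the groups did not overlap, and the part of residual heart tissue in the calls was not tested. Of the 173 genes that rose in Delta_19, 66 rose here too, which is 38.2% of the first list and 38.6% of the second, and 0 fell. Of the 156 that fell in Delta_19, 13 fell here, 8.33% of the first list and 9.22% of the second, and 1 rose. Whatever the test, 152 of the 173 risers (87.9%) and 124 of the 156 fallers (79.5%) had the same sign in both comparisons. Over all genes 50.3% were above 0 and 49.7% below in Full-KO minus Delta_17_18_92.

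By class of match, of the 72 risers with an 8mer, 71 had the same sign and 48 were called again, with a median log2 fold change of 0.30 in Delta_19 and 0.28 in Full-KO minus Delta_17_18_92. Of the 70 risers with neither match, 56 had the same sign and 16 were called again, with medians of 0.23 and 0.13. Of the 140 fallers with neither match, 109 had the same sign and 12 were called again, with medians of -0.21 and -0.077. All Full-KO and Delta_17_18_92 libraries were of the Y class by their sex-linked genes.

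Rnf11 had 69.8, 72.0 and 74.3 CPM in Full-KO, against 37.8 and 41.6 CPM in Delta_17_18_92. Suz12 had 248, 247 and 249 CPM in Full-KO, against 155 and 157 CPM in Delta_17_18_92. Kpna6, an importin that carries proteins into the nucleus and holds an 8mer, had 232, 228 and 230.0 CPM in Full-KO, against 145 and 156 CPM in Delta_17_18_92. These groups did not overlap either, and the log2 fold changes were 0.86 ± 0.070 SE, adjusted p = 1.28e-09 for Rnf11, 0.67 ± 0.036 SE, adjusted p = 7.89e-14 for Suz12 and 0.61 ± 0.044 SE, adjusted p = 1.17e-10 for Kpna6. In the first comparison Kpna6 had 165, 178 and 163 CPM in Delta_19 and 133, 131 and 129 CPM in Wild-type (0.36 ± 0.040 SE, adjusted p = 5.09e-07). Reep3 and Uhmk1 rose by 0.59 and 0.59 in Full-KO minus Delta_17_18_92.

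Among the falls, AW551984 had 5.26, 4.75 and 5.70 CPM in Full-KO, against 9.09 and 9.36 CPM in Delta_17_18_92. Its log2 fold change was -0.82 ± 0.13 SE, adjusted p = 5.33e-04. Col6a1 and Col12a1, chains of collagens VI and XII, fell by 0.60 and 0.47 in Full-KO minus Delta_17_18_92 (adjusted p = 0.00135 and 0.00667 by edgeR). In the first comparison Col12a1 had 20.9, 22.7 and 22.9 CPM in Delta_19 and 29.2, 27.6 and 28.5 CPM in Wild-type, and its call there was lost in 5 fits without a library. Pcyt1a, the regulated enzyme of phosphatidylcholine synthesis, had 72.3, 77.4 and 78.8 CPM in Delta_19 and 94.7, 91.3 and 92.1 CPM in Wild-type. It fell by 0.28 in Delta_19 and by 0.23 in Full-KO minus Delta_17_18_92. Micall1, an endosomal recycling protein, fell by 0.21 in Delta_19 and by 0.30 in Full-KO minus Delta_17_18_92. It lost its call in Delta_19 in 5 fits without a library. Sae1 and Rpl15 did not pass in Full-KO minus Delta_17_18_92, at 0.047 ± 0.039 SE, adjusted p = 0.663 for Sae1 and -0.0085 ± 0.045 SE, adjusted p = 0.966 for Rpl15.

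**Figure D4:**
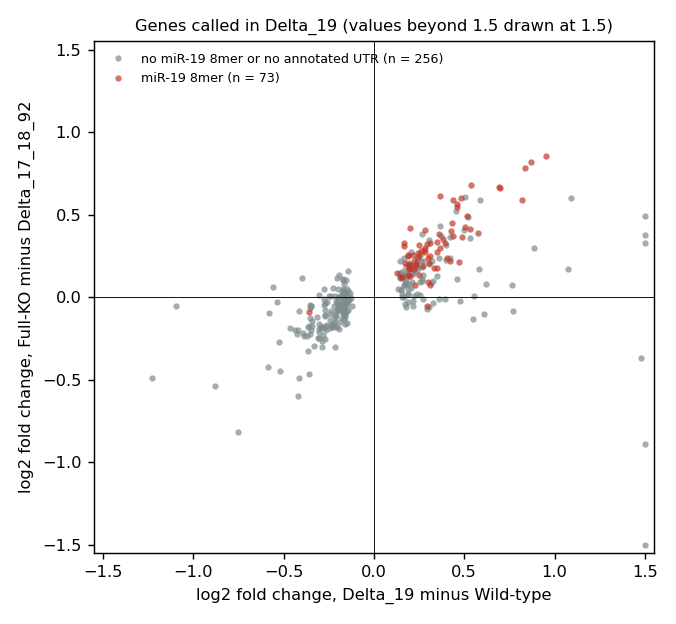
Log2 fold change in Full-KO minus Delta_17_18_92 (y axis) against that in Delta_19 minus Wild-type (x axis) for the 329 genes called in Delta_19, with the 73 genes that hold a miR-19 8mer in red. Of the 72 risers with an 8mer, 71 lie above 0 on both axes.

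Tail bud and heart of the same genotypes were fitted with the rest of the embryo, in 18 libraries with a biological coefficient of variation of 9.19%. Of 17571 genes tested, Delta_19 had 43 higher (0.245%) and 13 lower (0.074%) in the rest of the embryo, 78 higher (0.444%) and 43 lower (0.245%) in tail bud, and 28 higher (0.159%) and 39 lower (0.222%) in heart. Of the 173 rest-of-embryo risers, 162 were above 0 in tail bud and 145 in heart, beside 49.7% and 47.0% of all genes. Of the 156 fallers, 140 were below 0 in tail bud and 142 in heart, beside 50.3% and 52.9% of all genes. The risers above 0 include all 72 8mer genes in tail bud and 64 of the 72 in heart, and the median log2 fold change of these 72, which were chosen by their call in the rest of the embryo, was 0.30 there, 0.28 in tail bud and 0.16 in heart. Over all 839 genes with an 8mer, called or not, the order was another, with medians of 0.040 in the rest of the embryo, 0.090 in tail bud and 0.014 in heart. Mylip passed in tail bud at 0.85 and in heart at 0.55 (adjusted p = 3.41e-05 and 0.0241 by edgeR). The sources used here do not say whether tissues of the same replicate number come from the same embryos.

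The difference in the rest of the embryo was set against that in the other tissues by an interaction term. No gene passed between the rest of the embryo and tail bud by edgeR, and DESeq2 called 5. An unadjusted p under 0.05 was found for 782 of the 17571 genes tested, a share no larger than that threshold allows with no difference. Between the rest of the embryo and heart 2 genes passed (0.0114%). Rnf11 had 72.1, 71.8 and 74.7 CPM in Delta_19 rest of embryo, against 34.1, 40.0 and 38.9 CPM in Wild-type, on the scale of this fit. In heart it had 129.5, 126.4 and 135.2 CPM in Delta_19, against 99.1, 103.0 and 92.7 CPM in Wild-type. The groups were apart in both tissues, and the log2 fold change was higher in the rest of the embryo by 0.54 ± 0.088 (SE), adjusted p = 0.0467.

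Epb41l4a, a protein of the band 4.1 family, showed the opposite order. It had 35.6, 36.2 and 29.1 CPM in Delta_19 rest of embryo, against 28.9, 29.6 and 28.5 CPM in Wild-type, groups that overlapped. In heart it had 21.1, 18.7 and 15.3 CPM in Delta_19, against 8.01, 8.26 and 9.25 CPM in Wild-type. The log2 fold change was lower in the rest of the embryo than in heart by 0.90 ± 0.15 (SE), adjusted p = 0.0467 by edgeR. Its longest annotated 3′UTR holds neither match. With any 1 of the 12 libraries that enter the contrast left out in turn, Rnf11 no longer passed as an interaction, and at most 1 gene passed in the other direction.

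**Figure D5:**
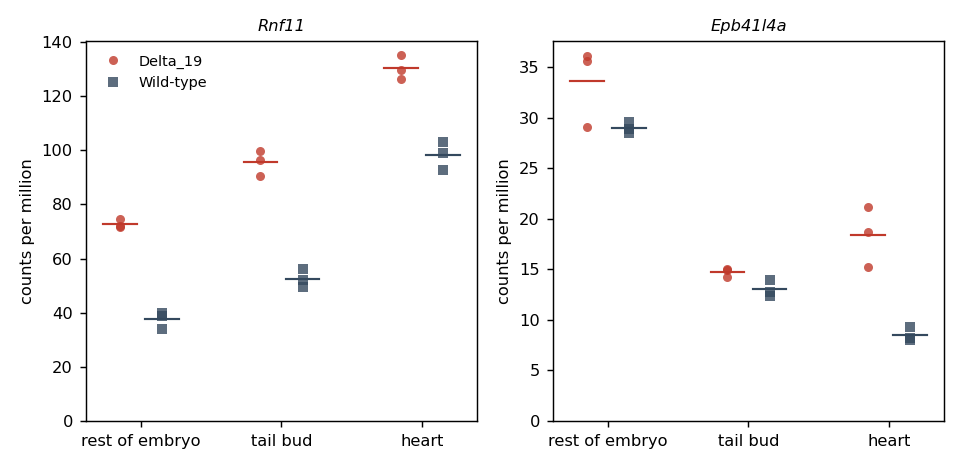
CPM (y axis, from 0) of Rnf11 and Epb41l4a in each Delta_19 library (circles) and Wild-type library (squares) of the rest of the embryo, tail bud and heart, with bars at the means. Rnf11 is higher in Delta_19 in all 3 tissues, while Epb41l4a separates most clearly in heart.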

How the data were processed

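RNA of E9.5 mouse embryos was extracted in TRIZOL and sequenced as single reads of 50 bases, per the labels' protocols. The authors deposited 1 table of whole-number read counts for 37620 Ensembl genes in 71 libraries. Per the submitters' processing notes, reads were handled with STAR 2.3.0, featureCounts from Subread 1.4.2 and SAMtools 0.1.14, on builds mm9 and NCBIM37. The strand setting, annotation release and treatment of multi-mapping reads are not given in the sources used here, so overlapping, antisense and near-identical genes are uncertain. Gene symbols were matched by gene ID to GENCODE for the later build GRCm38, for 32897 genes.

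Groups came from the sample titles. All 23 rest-of-embryo libraries entered 1 fit in edgeR 4.0.16 under R 4.3.3, after filterByExpr on genotype, with TMM scaling, robust dispersions and quasi-likelihood tests without a replicate block, and Benjamini-Hochberg adjustment over all genes with a threshold of 0.05. Contrasts were Delta_19 minus Wild-type, Delta_19 minus the mean of 3 single deletions, and Full-KO minus Delta_17_18_92. Interactions with tissue used the 18 Delta_19 and Wild-type libraries. The code was tested on simulated counts. CPM values were computed from the deposited counts, and per-library shifts used log2 CPM with a prior count of 2. The p-values weigh a mean difference against the spread between libraries, which was estimated over all libraries of a fit with information shared across genes. With 3 libraries a group, precision is limited for lowly expressed genes.

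The named genes are Mir17hg, Bcl2l11, Tgfbr2, Mylip and Ccn2; up to 12 genes a direction by largest fold change, among those whose groups do not overlap and whose mean log2 CPM reaches 2; up to 8 risers with an 8mer by smallest p; up to 5 a direction shared with each of the other contrasts; up to 4 for each interaction; and up to 4 called members of each list or, with none called, up to 2 by smallest p. Some results are not reported here. The members, lists and rules were chosen with earlier results of these data known. Of 420 list symbols 417 were in the table. Alternatives were DESeq2 1.42.0, other size factors, other filters, only the libraries compared, a replicate block, each library left out, and, chosen after seeing the data, a term for Xist class and 7mer-A1 matches.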

Additional observations from a re-analysis of the deposited data

Results flagged for a closer look

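The difference between Delta_19 and Wild-type was not the same in heart as in the rest of the embryo for 2 genes, by a test of the difference itself (edgeR interaction term, adjusted p = 0.0467 for both). The log2 fold change of Rnf11 was 0.95 in the rest of the embryo, 0.87 in tail bud and 0.41 in heart in the fit over 18 libraries, an interaction of 0.544 between the rest of the embryo and heart. For Epb41l4a it was 0.21, 0.19 and 1.11, an interaction of -0.899. Groups of 3 libraries are too small for a test of single outlying libraries.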

How the results depend on the processing

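Of 173 genes higher and 156 lower in Delta_19, testing without a filter on low counts gave 371 higher, and a fit on only the libraries compared gave 113 higher and 65 lower. Leaving out each library gave 84 to 229 higher and 58 to 179 lower, with 98 higher without Wild-type replicate 2 and 95 lower without replicate 3. Against the other single deletions (412 and 602) the ranges were 222 to 428 higher and 353 to 624 lower, with 222 and 353 without Delta_19 replicate 1. For Full-KO minus Delta_17_18_92 (171 and 141), no filter gave 286 higher and 387 lower, only the libraries compared gave 110 higher, and leaving out a library gave 41 to 165 higher and 11 to 126 lower, where a lone Delta_17_18_92 library is assumed to vary like the other groups.

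Between the rest of the embryo and tail bud (0 genes), DESeq2 called 3 higher and 2 lower, and leaving out a library gave 0 to 1 in each direction. Between the rest of the embryo and heart (1 and 1), DESeq2 called 3 higher, no filter 2 higher, all 71 libraries in the fit 6 higher, and a mean log2 CPM of at least 3 gave 0 and 0. Leaving out a library gave 0 to 0 higher and 0 to 1 lower there, so neither Rnf11 nor Epb41l4a is a stable call as an interaction. The median of 8mer genes stood 0.047 above that of genes with neither match, and 0.045 to 0.057 with a library left out, the highest without Delta_19 replicate 3 (0.057). Of 8mer genes 72 rose, and 49 to 80 with a library left out. The 1 that fell became 0 with the term for Xist class, 3 by DESeq2, 6 without a filter, 2 at a mean log2 CPM of at least 3, 0 on only the libraries compared and 0 to 2 with a library left out. Among values that had not passed the threshold, the log2 fold change changed sign with a library left out for Ccn2 (-0.049 to 0.22, lowest without Delta_19 replicate 2), Afp (-1.32 to 1.37, lowest without Delta_19 replicate 3), Trf (-0.41 to 0.66, also lowest without that library, and -0.023 without Wild-type replicate 2) and Neurog1 (-0.0033 to 0.35, lowest without Wild-type replicate 1), and, with the term for Xist class, the Y-linked Eif2s3y (0.029) and Uty (0.13). The causes of these moves were not tested.

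Of 46 called named genes, 25 kept the call in every fit without a library. Same-numbered Delta_19 and Wild-type libraries deviated from their group means with correlations of 0.31, 0.46 and -0.42. For differently numbered libraries the correlations ran from -0.62 to 0.52. With 3 libraries a group, such values cannot show whether the numbers mark pairs. A replicate block gave 170 genes higher and 147 lower. With the term for Xist class 154 were higher and 119 lower.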

Other observations

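A pair of called genes on chromosome 14 lay farther from the deletion, and both were picked for this description after their values were seen. Delta_19 and Delta_17 share the Wild-type libraries, so their values stand side by side with no comparison. Gm5089, which starts 7.39 Mb from Mir17hg, had 1.26, 1.16 and 2.48 CPM in Delta_19 and 0.0527, 0.410 and 0.368 CPM in Wild-type (log2 fold change 2.48 ± 0.46 SE, adjusted p = 0.00254 by edgeR). Against the same Wild-type libraries it stood at 2.91 in Delta_17, -0.31 in Delta_18 and -0.84 in Delta_92. B930095G15Rik, 6.20 Mb from Mir17hg, was lower by 0.47 in Delta_19 and 0.56 in Delta_17, and stood at 0.048 in Delta_18 and -0.12 in Delta_92. In Full-KO minus Delta_17_18_92, Gm5089 was at 0.33 (adjusted p = 0.895).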
